A study of Homo sapiens with 6 samples.

Results

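This account concerns the genes of the vacuolar H+-ATPase (V-ATPase), its accessory proteins, the Ragulator complex and the Rag GTPases in TC-71 cells, a line derived from a human Ewing sarcoma and labelled WT. Cells were treated with BEZ235, an inhibitor of the kinases PI3K and mTOR dissolved in dimethyl sulfoxide (DMSO), or with DMSO alone, both for 16 h, and RNA was sequenced from 3 biological replicates per group. No source used here gives the dose of BEZ235. Rows of the deposited table were taken by symbol: every symbol that starts with ATP6V0 or ATP6V1, together with ATP6AP1, ATP6AP2, LAMTOR1 to LAMTOR5 and RRAGA to RRAGD, without names that hold a hyphen. This gave 35 of 48114 rows: 13 for the V1 sector, 9 for the V0 sector, 2 for accessory proteins, 5 for Ragulator and 4 for Rag GTPases. The other 2, the pseudogene ATP6V0CP3 and ATP6V1FNB, a gene named for its place beside ATP6V1F, matched by name and are no subunits.

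The V-ATPase is the proton pump that acidifies lysosomes, endosomes and secretory vesicles. Its V1 sector hydrolyses ATP in the cytosol and turns a rotor that drives protons through the V0 sector in the membrane. Ragulator anchors the Rag GTPases to the lysosomal surface, where a heterodimer of RagA or RagB with RagC or RagD recruits mTOR complex 1 when amino acids are plentiful, and the V-ATPase takes part in this sensing. Transcription factors of the MiT/TFE family, which bind the letters CACGTG in the promoters of many lysosomal genes, are held in the cytoplasm when mTOR complex 1 is active.

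The libraries held 186274074 to 221626548 recovered reads with BEZ235 and 184790722 to 233767211 with DMSO. Mitochondrial rows took 0.507% to 0.706% of the normalized counts with BEZ235 and 2.82% to 3.55% with DMSO, and the part of this difference in the results was not tested. All 12 Ewing sarcoma markers examined reached a normalized count of 10 in some library. The list summed to 480590 to 505623 with BEZ235 and 530684 to 603719 with DMSO. Among them CD99 was lower with BEZ235 (208374 ± 2750, against 263162 ± 3650 with DMSO). NKX2-2 was higher with BEZ235 (7561 ± 127, against 3154 ± 126 with DMSO). Of 8 osteoclast markers, CALCR and OCSTAMP were listed at 0 and the list summed to 754 to 785 with BEZ235 and 1075 to 1235 with DMSO. Of 7 renal intercalated cell markers DMRT2 was listed at 0, and the list summed to 1315 to 1538 with BEZ235 and 759 to 899 with DMSO, mostly KIT. These cell types were examined because they use tissue-restricted V-ATPase subunits. All 8 fibroblast markers reached 10 in some library, and the list summed to 34853 to 37308 with BEZ235 and 32724 to 34075 with DMSO, mostly COL3A1. Blood markers summed to 2320 to 2438 with BEZ235 and 2559 to 4017 with DMSO. Endothelial markers summed to 1105 to 1280 with BEZ235 and 1015 to 1400 with DMSO, mostly CLDN5. Epithelial markers summed to 1124 to 1337 with BEZ235 and 19437 to 20332 with DMSO, the DMSO sums being mostly ESRP1 (22.1 ± 9.24 with BEZ235 and 18015 ± 497 with DMSO), with KRT19 and KRT5 listed at 0.

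Transcripts of these complexes moved in both directions and mostly by less than 2-fold. Of the 35 rows, 31 reached 10 normalized counts in 3 or more libraries and were tested with limma on log2(normalized count + 1), with Benjamini-Hochberg adjustment over all 23923 genes tested and a threshold of 0.05. With BEZ235, 12 rows rose, 12 fell and 7 did not pass the test. Over all genes tested 66.3% passed, 33.1% higher and 33.2% lower. The median log2 fold change was 0.08 for the 31 rows and 0.00 for all genes tested, and the median size of the change was 0.39 for the 31 rows and 0.60 for all genes tested. The test was passed with a 2-fold or larger change by 1 row, RRAGB, against 26.3% of genes tested. Most of the rows are abundant: among the 10984 genes tested with a DMSO mean of at least 1000, 80.0% passed, 16.8% passed with a 2-fold or larger change, and the median size of the change was 0.45. The values of the groups did not overlap for 25 rows, 13 higher and 12 lower, against 70.9% of genes tested, 35.5% higher and 35.4% lower. In bulk RNA a transcript made by fewer cells and less of it per cell cannot be told apart.

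**Figure D1:**
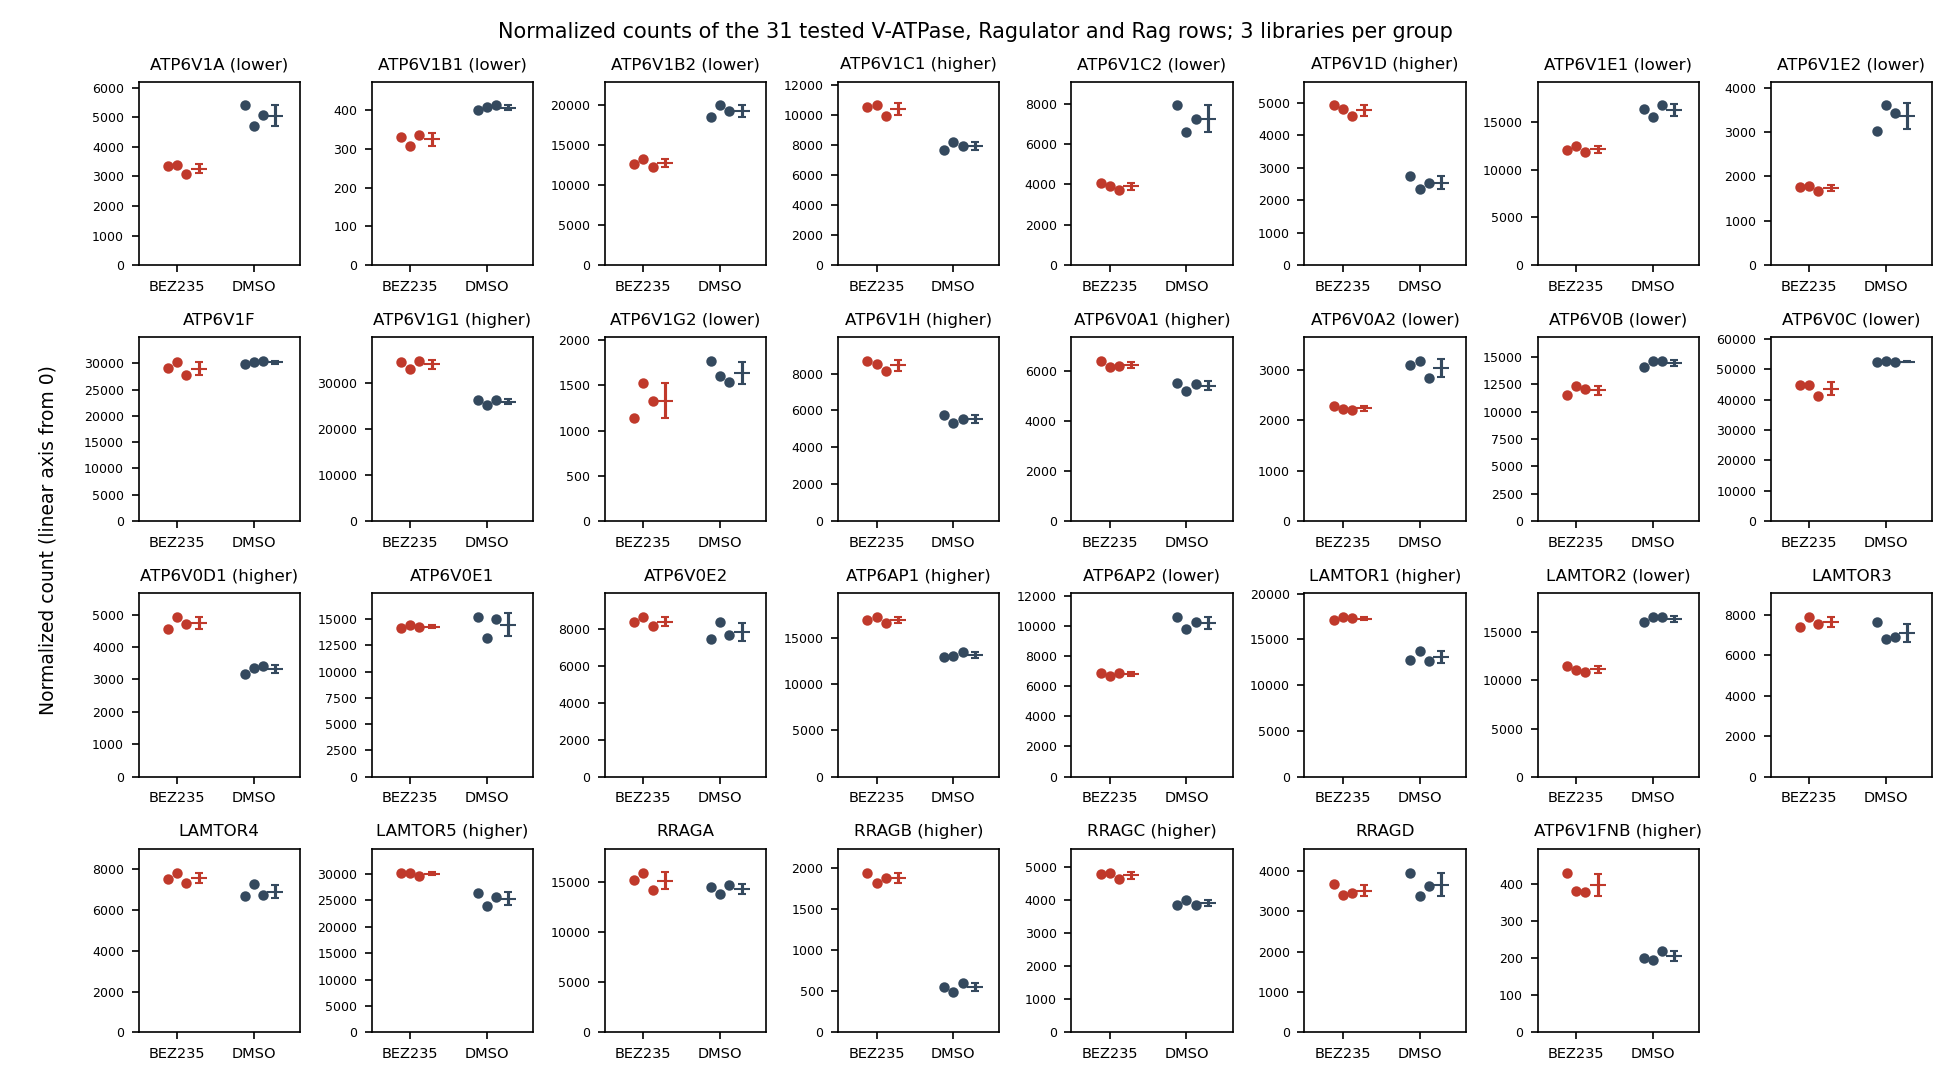
Normalized counts (y axis, linear from 0) of the 31 tested rows in each library, BEZ235 left and DMSO right; points are libraries and the bar beside them is the mean with its SD (n = 3). RRAGB stands at 1815 to 1939 with BEZ235 and 496 to 603 with DMSO, while most other rows differ by less than 2-fold.

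In the V1 sector 4 of 12 tested subunits rose and 7 fell, and the median of their log2 fold changes was -0.32. Over all genes tested 33.1% rose and 33.2% fell, and among those with a DMSO mean of at least 1000, 36.8% and 43.1%. Of the genes of the catalytic head, ATP6V1A and ATP6V1B2 fell, and ATP6V1B1 is given below. ATP6V1A, which carries the ATP-hydrolysing sites (hg38 chromosome 3, 113746817 to 113812056), had normalized counts of 3335, 3386 and 3076 with BEZ235, against 5397, 4689 and 5084 with DMSO. ATP6V1B2, the widely expressed B subunit that alternates with A in the head, had 12578, 13271 and 12253 with BEZ235, against 18481, 19914 and 19193 with DMSO. For both genes every BEZ235 library lay below every DMSO library. The log2 fold changes were -0.63 for ATP6V1A (SE 0.068, limma adjusted p = 1.06e-05) and -0.60 for ATP6V1B2 (SE 0.053, limma adjusted p = 2.18e-06).

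ATP6V1D and ATP6V1H rose. ATP6V1D, the central rotor shaft (chromosome 14, 67335930 to 67359937), had normalized counts of 4920, 4796 and 4597 with BEZ235, against 2743, 2344 and 2528 with DMSO. This 1.88-fold difference was the largest rise among V-ATPase subunits taken by the symbol rule (log2 fold change 0.91, SE 0.069, limma adjusted p = 5.81e-07). Its row shares 132 bases with the row of PALS1, which fell with a log2 fold change of -0.34. ATP6V1H, which links V1 to V0 and holds back ATP hydrolysis by free V1, had 8669, 8532 and 8127 with BEZ235, against 5772, 5301 and 5546 with DMSO (log2 fold change 0.61, SE 0.055, limma adjusted p = 2.54e-06). ATP6V1F, which sits beside D in the rotor, was the one tested V1 subunit that did not pass, with 28981 ± 1233 with BEZ235 and 30173 ± 246 with DMSO (SD, n = 3 each, as for every ± here) and a 95% interval of -0.17 to 0.05 for the log2 fold change. The ATP6V1F row lies within that of KCP, which did not pass either. With total-count scaling the log2 fold change of ATP6V1F was -0.16 (limma adjusted p = 0.0232, range over all alternatives 0.0232 to 0.923).

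The isoforms of the C subunit, which joins the peripheral stalks to V0, moved in opposite directions. ATP6V1C2, a C isoform best known from lung and kidney (chromosome 2, 10721630 to 10785111), had normalized counts of 4094, 3898 and 3743 with BEZ235, against 7910, 6572 and 7263 with DMSO. ATP6V1C1, the widely expressed C isoform, had 10551, 10621 and 9902 with BEZ235, against 7665, 8193 and 7932 with DMSO. The groups did not overlap for either isoform. Log2 fold changes were -0.89 for ATP6V1C2 (SE 0.072) and 0.39 for ATP6V1C1 (SE 0.053), both past the limma threshold. The ATP6V1C2 row shares 1721 bases with PDIA6, a far more abundant gene (34667 with BEZ235, 66490 with DMSO) whose log2 fold change was -0.94. The part of PDIA6 in the ATP6V1C2 value was not tested.

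ATP6V1E2, an E isoform best known from testis, had normalized counts of 1756, 1784 and 1662 with BEZ235, against 3034, 3602 and 3433 with DMSO, the largest fall of any of the 31 rows (log2 fold change -0.95, SE 0.076, limma adjusted p = 8.94e-07). Its row shares 88 bases with RHOQ, which had a log2 fold change of -0.85. The widely expressed ATP6V1E1 fell less, to 12110 ± 328 with BEZ235, against 16201 ± 611 with DMSO (log2 fold change -0.42, SE 0.051). Of the G subunits, which pair with E in the stalks, ATP6V1G1 rose to 34069 ± 972 with BEZ235, against 25915 ± 520 with DMSO (log2 fold change 0.39, SE 0.048, limma adjusted p = 2.79e-05). ATP6V1G2, best known from neurons, and ATP6V1B1, best known from kidney, had small falls with log2 fold changes of -0.31 (SE 0.106) and -0.33 (SE 0.113) and limma adjusted p of 0.0243 and 0.0246. The ATP6V1G2 call was lost without BEZ235 replicate 1 (log2 fold change -0.20, adjusted p = 0.106) or 3 (adjusted p = 0.0622), without DMSO replicate 1 (adjusted p = 0.0642), with quantile normalization (0.061) and without the trend (0.0833), with a range of 0.00613 to 0.106 over all alternatives. That of ATP6V1B1 was lost without BEZ235 replicate 2 (adjusted p = 0.0805) or DMSO replicate 3 (0.0774), with a range of 0.00583 to 0.0805. ATP6V1G3, a kidney isoform, was not tested: its recovered reads were 15, 3 and 32 with BEZ235 and 9, 8 and 9 with DMSO.

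In the V0 sector, 2 of 7 tested subunits rose and 3 fell, beside 33.1% and 33.2% of all genes tested. The proton-carrying ring was lower: ATP6V0C, its main component, fell to 43625 ± 2201 with BEZ235, against 52448 ± 163 with DMSO (log2 fold change -0.27, SE 0.053), and ATP6V0B, another ring subunit, fell to 11964 ± 425 with BEZ235, against 14429 ± 298 with DMSO (log2 fold change -0.27, SE 0.050, limma adjusted p = 6.11e-04). ATP6V0D1, which couples the ring to the rotor (chromosome 16, 67438019 to 67481164), had normalized counts of 4564, 4927 and 4699 with BEZ235, against 3182, 3355 and 3411 with DMSO, and rose (log2 fold change 0.51, SE 0.058, limma adjusted p = 1.57e-05). The a subunit, the largest of V0, forms the path of the protons beside the ring. Of its isoforms, ATP6V0A2, known from Golgi and endosomes, had 2293, 2223 and 2206 with BEZ235, against 3103, 3181 and 2838 with DMSO, a log2 fold change of -0.44 (SE 0.065). ATP6V0A1, abundant in neurons, had 6390, 6152 and 6186 with BEZ235, against 5526, 5203 and 5485 with DMSO, a rise of 0.21 on the log2 scale (SE 0.053) that was 0.11 with an adjusted p of 0.113 under total-count scaling (0.000997 to 0.113 over all alternatives).

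The small e subunits did not pass the test. ATP6V0E1 had 14267 ± 142 with BEZ235 and 14459 ± 1094 with DMSO, with a 95% interval of -0.15 to 0.12, and its sign was positive with quantile normalization and without DMSO replicate 1 or 3 (log2 fold changes of 0.02, 0.02 and 0.01). ATP6V0E2 had 8372 ± 243 with BEZ235 and 7821 ± 481 with DMSO, with an interval of -0.03 to 0.23, and passed without DMSO replicate 2 (log2 fold change 0.15, limma adjusted p = 0.026) and with quantile normalization (limma adjusted p = 0.0269), with a range of 0.026 to 0.971 over all alternatives. ATP6V0D2, an osteoclast and kidney isoform, and ATP6V0A4, a kidney isoform, were at or near 0. ATP6V0D2 had 0 reads in all 6 libraries, which allows up to 3 reads in each, and ATP6V0A4 and the pseudogene ATP6V0CP3 had 0 reads except for 3 and 6 in DMSO replicate 3. The a3 isoform is encoded by TCIRG1, a symbol outside the rule. It is known from osteoclasts and lysosomes and had normalized counts of 3552, 3786 and 3512 with BEZ235, against 994, 1243 and 1225 with DMSO. This 3.13-fold rise (log2 fold change 1.65, SE 0.090, limma adjusted p = 4.91e-08) exceeded that of every tested V0 row taken by the rule.

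Of the accessory proteins, which help to assemble and sort the pump, ATP6AP1 rose and ATP6AP2 fell. ATP6AP1 had normalized counts of 16874, 17223 and 16598 with BEZ235, against 12916, 13007 and 13448 with DMSO (log2 fold change 0.36, SE 0.047, limma adjusted p = 4.3e-05). ATP6AP2, also called the prorenin receptor, had 6840, 6671 and 6900 with BEZ235, against 10585, 9778 and 10233 with DMSO (log2 fold change -0.58, SE 0.052, limma adjusted p = 2.11e-06). Both genes lie on the X chromosome, and for neither did the groups overlap. An unnamed row that shares 274 bases with ATP6AP1 rose as well, with a log2 fold change of 0.38. ATP6V1FNB, which is no subunit, rose to 397 ± 29.5 with BEZ235, against 205 ± 13.2 with DMSO, a log2 fold change of 0.95 (SE 0.131). Its row lies within that of KCP, which was more abundant (2066 ± 161 with BEZ235, 2226 ± 74.7 with DMSO) and did not pass the test.

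Of the 5 Ragulator genes 2 rose and 1 fell, beside 33.1% and 33.2% of all genes tested. LAMTOR1, the lipid-anchored subunit that wraps round the others and holds them on the lysosome, had normalized counts of 17102, 17460 and 17301 with BEZ235, against 12705, 13786 and 12650 with DMSO. LAMTOR2, which pairs with LAMTOR3, had 11534, 11064 and 10883 with BEZ235, against 16045, 16596 and 16583 with DMSO. These 2 genes moved in opposite directions with no overlap of the groups, with log2 fold changes of 0.41 for LAMTOR1 (SE 0.052, limma adjusted p = 3.61e-05) and -0.56 for LAMTOR2 (SE 0.049, limma adjusted p = 1.9e-06). LAMTOR5 rose to 29963 ± 287 with BEZ235, against 25282 ± 1261 with DMSO (log2 fold change 0.25, SE 0.052).

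LAMTOR4, the partner of LAMTOR5, had 7490, 7814 and 7328 with BEZ235, against 6660, 7244 and 6728 with DMSO. Its groups did not overlap, but the log2 fold change of 0.13 (SE 0.056, 95% interval 0.01 to 0.26) missed the threshold (limma adjusted p = 0.0529). It passed without DMSO replicate 2 (adjusted p = 0.013), with both count tests (edgeR 0.0351, DESeq2 0.0488), TMM scaling (0.034), quantile normalization (0.00561) and a filter at 50 (0.0493), with a range of 0.00561 to 0.644 over all alternatives. LAMTOR3 had 7635 ± 248 with BEZ235 and 7122 ± 461 with DMSO, with an interval of -0.03 to 0.23, and passed without DMSO replicate 1 (log2 fold change 0.15, limma adjusted p = 0.0377, range 0.0377 to 0.937). The LAMTOR1 row lies within LRTOMT // LRRC51, which did not pass the test.

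Of the 4 Rag GTPase genes 2 rose and 0 fell, beside 33.1% and 33.2% of all genes tested. RRAGB, an X-linked gene for RagB (chromosome X, 55717738 to 55758774), had normalized counts of 1939, 1815 and 1876 with BEZ235, against 556, 496 and 603 with DMSO. Every BEZ235 library stood far above every DMSO library. The 3.40-fold difference (log2 fold change 1.77, SE 0.091, limma adjusted p = 3.22e-08) was the largest change of the 31 rows. RRAGA, the gene for RagA and far more abundant, had 15269, 15976 and 14263 with BEZ235, against 14520, 13800 and 14730 with DMSO, with overlapping groups, a log2 fold change of 0.08 and a 95% interval of -0.05 to 0.20. Its row lies within that of HAUS6, which fell with a log2 fold change of -0.51.

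RRAGC, the gene for RagC, had normalized counts of 4780, 4816 and 4615 with BEZ235, against 3835, 4000 and 3855 with DMSO (log2 fold change 0.28, SE 0.054, limma adjusted p = 7.62e-04). RRAGD, the gene for RagD and a known MiT/TFE target, had 3663, 3409 and 3445 with BEZ235, against 3950, 3383 and 3630 with DMSO. Its groups overlapped, and the log2 fold change of -0.06 had an interval of -0.21 to 0.09. The sign of RRAGA was negative with total-count scaling (-0.02) and that of RRAGD positive with quantile normalization (log2 fold change of 0.00), as was that of ATP6V1F.

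**Figure D2:**
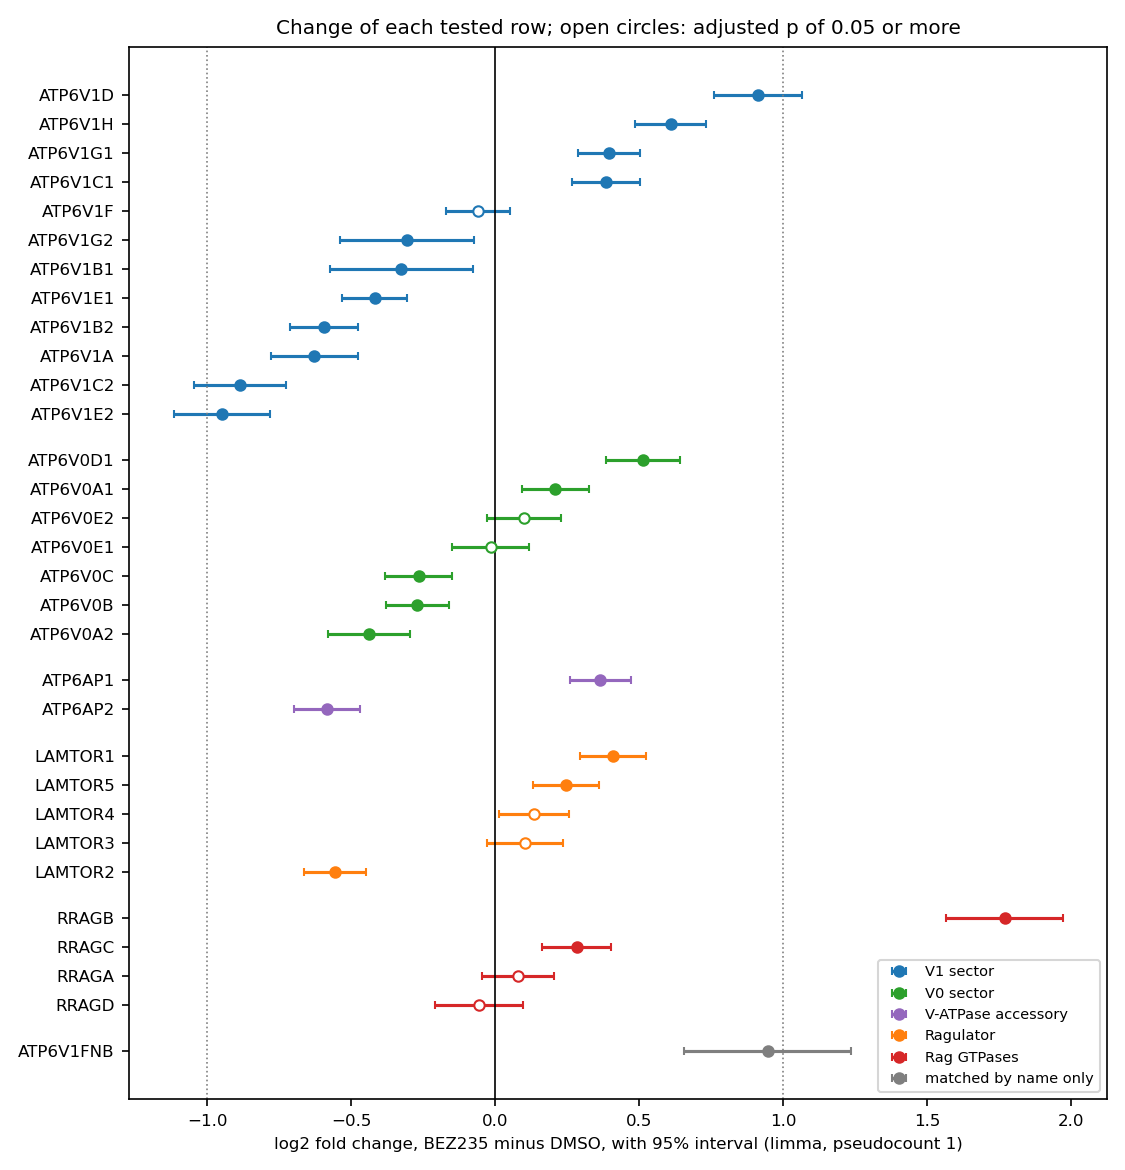
Log2 fold change of each tested row (x axis, BEZ235 minus DMSO, with its 95% interval from limma), grouped by complex; filled circles passed the adjusted p threshold of 0.05, and dotted lines mark 2-fold. RRAGB stands at 1.77, beyond every other row, and the V1 subunits run from -0.95 for ATP6V1E2 to 0.91 for ATP6V1D.

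Promoter windows of 250 bases before to 50 after the annotated start (RefSeq, GRCh38.p14) were at hand for 24 of the 35 genes. They were searched for the letters CACGTG and for a longer form, CACGTG with GT before it and AC after it. The letters TCACGTGA were searched for as well. Each of these reads the same on both strands. Of 9 genes that rose and had a window, 5 held CACGTG: RRAGB, ATP6V1G1, ATP6V0D1, LAMTOR1 and RRAGC. Of 9 that fell 1 did, ATP6V0B. Of the 6 others, 2 did, ATP6V0E2 and LAMTOR4. These counts leave out ATP6V1A, ATP6V1B2 and ATP6V1E2, which fell, and ATP6V1C1, ATP6V1H and ATP6V1FNB, which rose, as none had a window. RRAGA, RRAGD, ATP6V0E1, ATP6V0D2 and ATP6V0CP3 had none either. CACGTG occurred in 7.26% of all 35116 windows, in 11.6% of the genes tested that have a window, and in 13.6% and 10.1% of the genes tested that rose and fell. The longer form was found in 2 of the 24 genes, RRAGB and ATP6V1G1, and in 0.353% of all windows or 0.736% of the genes tested that have a window. TCACGTGA was found in 3 of the 24 genes, RRAGB, ATP6V1G1 and ATP6V0D1. These were 3 of the 9 that rose, with 0 of the 9 that fell and 0 of the 6 others. It occurred in 1.86% of the genes tested that have a window, and in 2.55% and 1.31% of those that rose and fell. A match is a description of the sequence and does not show binding. Windows are given 5′ to 3′ on the strand of the gene, with CACGTG and the longer form in capitals. They are those of RRAGB, which had the largest change, and of ATP6V1G1, which shares the longer form. The others are those of ATP6V0D1, which rose, and of ATP6V0B, which fell with 2 matches to CACGTG. The RRAGB window is chrX:55717499-55717798 (plus strand), with matches that begin 115 and 25 bases before the start and 7 after it, the second in the longer form. That of ATP6V1G1 is chr9:114587519-114587818 (plus), with CACGTG 58 bases before the start. That of ATP6V0D1 is chr16:67481108-67481407 (minus), with CACGTG 59 bases before. That of ATP6V0B is chr1:43974710-43975009 (plus), with matches 57 and 39 bases before.
RRAGB: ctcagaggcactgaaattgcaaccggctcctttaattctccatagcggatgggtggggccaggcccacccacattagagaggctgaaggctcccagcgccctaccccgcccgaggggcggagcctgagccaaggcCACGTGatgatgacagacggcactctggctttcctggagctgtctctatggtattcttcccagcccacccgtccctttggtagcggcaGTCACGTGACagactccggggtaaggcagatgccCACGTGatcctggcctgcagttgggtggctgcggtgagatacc
ATP6V1G1: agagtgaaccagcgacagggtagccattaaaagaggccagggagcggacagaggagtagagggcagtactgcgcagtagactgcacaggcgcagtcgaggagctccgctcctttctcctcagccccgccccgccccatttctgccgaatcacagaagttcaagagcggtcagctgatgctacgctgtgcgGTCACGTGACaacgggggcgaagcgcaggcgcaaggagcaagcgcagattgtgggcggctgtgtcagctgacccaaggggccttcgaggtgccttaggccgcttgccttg
ATP6V0D1: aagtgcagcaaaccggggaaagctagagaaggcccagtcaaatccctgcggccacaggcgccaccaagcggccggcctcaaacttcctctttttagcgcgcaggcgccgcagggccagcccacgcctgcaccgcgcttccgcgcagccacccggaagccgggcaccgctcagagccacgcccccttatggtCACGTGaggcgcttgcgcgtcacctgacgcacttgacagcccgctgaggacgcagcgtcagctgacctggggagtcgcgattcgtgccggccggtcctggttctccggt
ATP6V0B: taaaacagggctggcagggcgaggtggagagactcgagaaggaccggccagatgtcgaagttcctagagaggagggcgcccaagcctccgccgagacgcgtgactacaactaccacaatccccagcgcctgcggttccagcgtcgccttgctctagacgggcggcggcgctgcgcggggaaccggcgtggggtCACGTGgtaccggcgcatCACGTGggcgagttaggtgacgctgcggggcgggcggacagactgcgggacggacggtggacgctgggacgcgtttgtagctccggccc

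The balance between paralogs was followed as the log2 ratio of their normalized counts within each library, a measure on which library scaling has almost no bearing. With 3 libraries per group an exact permutation test could not give a p below 0.1, and the ratios are given without a test. The ratio did not overlap between groups for 7 of 8 pairs. The same share over other gene pairs was not computed, and 70.9% of single genes did not overlap. RRAGB over RRAGA was -2.98, -3.14 and -2.93 with BEZ235, against -4.70, -4.80 and -4.61 with DMSO, a difference of 1.69. ATP6V1C2 over ATP6V1C1 was -1.45 to -1.37 with BEZ235, against -0.32 to 0.05 with DMSO, a difference of -1.27. Relative to its paralog, RRAGB was thus higher and ATP6V1C2 lower with BEZ235. The part of PDIA6, whose row overlaps that of ATP6V1C2, in the C ratio was not tested.

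The other pairs shifted by less. ATP6V0A2 over ATP6V0A1 differed by -0.65, ATP6V1G2 over ATP6V1G1 by -0.70, ATP6V1E2 over ATP6V1E1 by -0.53, RRAGD over RRAGC by -0.34 and ATP6V1B1 over ATP6V1B2 by 0.27. The first-named gene was thus lower relative to its paralog with BEZ235, other than in the B pair. ATP6V0E2 over ATP6V0E1 overlapped between groups, with -0.77 ± 0.03 with BEZ235 and -0.89 ± 0.20 with DMSO. Per kilobase of the principal transcript, RRAGB made up 11.1% ± 0.743 of RRAGA and RRAGB with BEZ235 and 3.73% ± 0.236 with DMSO. ATP6V1C2 made up 40.6% ± 0.674 of the C pair with BEZ235 and 62.2% ± 2.96 with DMSO. Over all annotated exons in place of the principal transcript the share of RRAGB was 6.74% with BEZ235 and 2.19% with DMSO, and that of ATP6V1C2 was 38.8% with BEZ235 and 60.5% with DMSO. PDIA6, far more abundant, shares 1721 bases with the ATP6V1C2 row, and its part in the ATP6V1C2 shares was not tested.

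**Figure D3:**
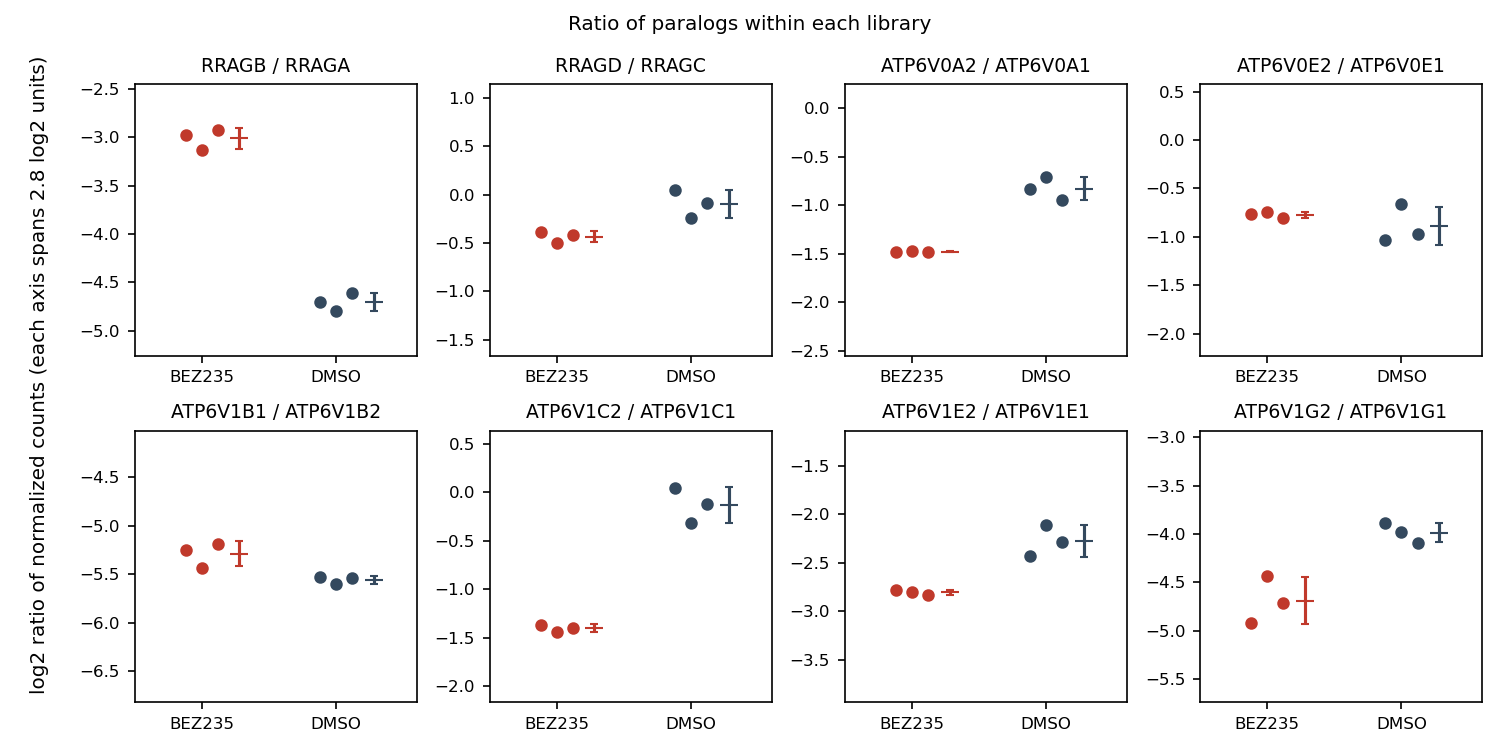
Log2 ratio of the normalized counts of 2 paralogs (y axis, each panel with its own range of equal span) in each BEZ235 (left) and DMSO (right) library; the bar is the mean with its SD (n = 3). RRAGB over RRAGA lies at -3.14 to -2.93 with BEZ235 and -4.80 to -4.61 with DMSO, and ATP6V1C2 over ATP6V1C1 shifts in the opposite direction. The ATP6V1C2 row overlaps that of PDIA6.

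Levels of different subunits were compared as normalized counts per kilobase of the principal transcript in GENCODE v29. Among tested V1 subunits they were highest for ATP6V1F (41167 ± 1751 with BEZ235, 42860 ± 349 with DMSO) and ATP6V1G1 (31546 ± 900 with BEZ235 and 23995 ± 481 with DMSO) and lowest for ATP6V1B1 (167 ± 8.04 with BEZ235 and 209 ± 3.43 with DMSO). ATP6V1A, of which each pump holds several copies, was at 711 ± 36.2 with BEZ235 and 1101 ± 77.3 with DMSO, per kilobase, below its partner ATP6V1B2 at 4418 ± 181 with BEZ235 and 6677 ± 249 with DMSO. Over the exon union this gap was smaller, with 637 for ATP6V1A and 1625 for ATP6V1B2 with BEZ235, and 986 and 2456 with DMSO. Among tested V0 subunits ATP6V0C, the subunit with most copies in the ring, was highest at 37128 ± 1873 with BEZ235 and 44636 ± 139 with DMSO, and ATP6V0A2 lowest at 343 ± 7.04 with BEZ235 and 465 ± 27.4 with DMSO.

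Of the Ragulator genes LAMTOR5 was highest per kilobase (34520 ± 331 with BEZ235 and 29127 ± 1452 with DMSO) and LAMTOR3 lowest (1807 ± 58.7 with BEZ235 and 1685 ± 109 with DMSO). With DMSO, LAMTOR4 and LAMTOR1 were neighbours in this order at 11367 ± 528 and 11066 ± 543, a difference within their spread. Over the exon union LAMTOR2 stood above LAMTOR5 with DMSO (11410 and 10587) and LAMTOR1 above LAMTOR4 (4697 and 3552), so that these orders depend on the length used. Of the Rag genes RRAGA stood first at 9547 ± 542 with BEZ235 and 9031 ± 307 with DMSO, and RRAGC second, although over the exon union with DMSO RRAGC and RRAGD differed within their spread (754 and 721). RRAGB was at 1193 ± 39.2 with BEZ235, above RRAGD at 715 ± 28.1, whereas with DMSO it was at 351 ± 34.3, below RRAGD at 746 ± 58.1. Over the exon union, a length chosen after seeing the data, RRAGB and RRAGD were nearly level with BEZ235 (689 and 691), so that this order depends on the length used.

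**Figure D4:**
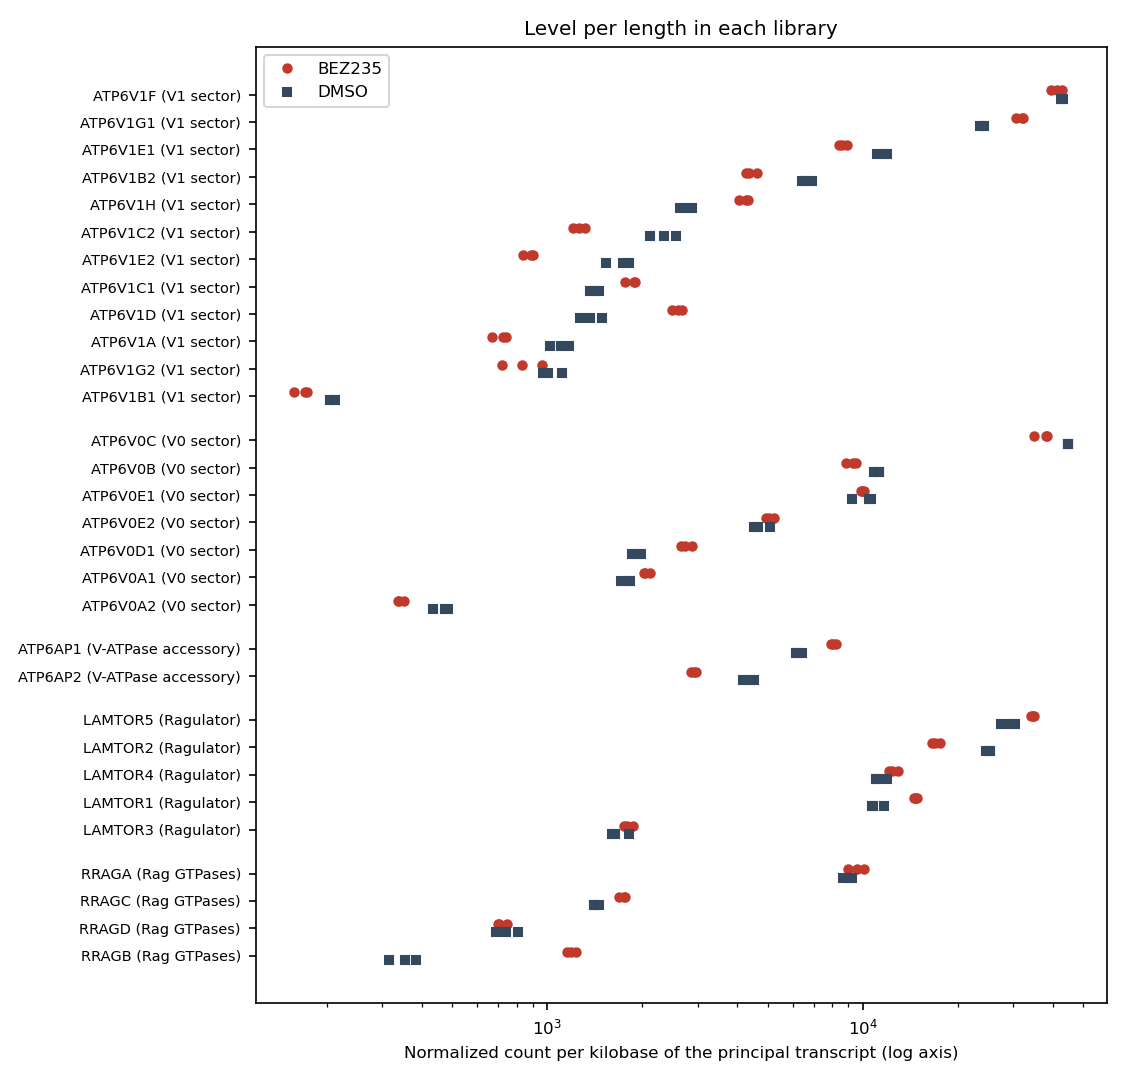
Normalized count per kilobase of the principal transcript (x axis, log scale) of each tested subunit in the 3 BEZ235 libraries (circles) and the 3 DMSO libraries (squares). RRAGB lies above RRAGD with BEZ235 (nearly level over the exon union) and below it with DMSO, and ATP6V1F and ATP6V0C lead their sectors.

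Summed over the genes taken by the symbol rule, normalized counts of the V0 sector were 88599 to 93580 with BEZ235, against 100545 to 101360 with DMSO, 0.906 times the DMSO mean. This sum leaves out TCIRG1 (3617 ± 148 with BEZ235 and 1154 ± 139 with DMSO) and every other V-ATPase gene outside the rule, so that it is not the whole sector. Those of V1 were 119316 to 123708 with BEZ235 and 123677 to 126258 with DMSO, with overlapping groups. Ragulator summed to 72725 to 74303 with BEZ235, against 68297 to 69370 with DMSO (1.07 times), and the Rag genes to 24199 to 26016 with BEZ235, against 21679 to 22862 with DMSO (1.13 times). Abundant transcripts carry these sums, so that ATP6V0C weighs most in V0 and RRAGA most in the Rag genes. The sums are of counts as deposited and were not repeated under another scaling, on which their ratios depend. Normalized totals of whole libraries ran from 2.01e+08 to 2.16e+08 with BEZ235 and from 1.91e+08 to 2.06e+08 with DMSO.

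A list of 13 further V-ATPase genes outside the symbol rule, TCIRG1 and genes that assemble the pump or act on it, held 7 that rose and 3 that fell. This list and the related lists below together held 86 genes, of which 36.0% rose and 41.9% fell. Over all genes tested 33.1% rose and 33.2% fell. Among those with a DMSO mean of at least 1000, 36.8% rose and 43.1% fell. Beside TCIRG1, CCDC115, an assembly factor of V0, rose by 0.84 on the log2 scale (SE 0.067), and DMXL1, a subunit of the RAVE complex that rejoins V1 to V0, by 0.66 (SE 0.067). ROGDI, another RAVE component, fell to 486 ± 19.6 with BEZ235, against 1975 ± 43.4 with DMSO (log2 fold change -2.02, SE 0.079, limma adjusted p = 4.36e-09). NCOA7, which binds the pump, and VMA21, an assembly chaperone of V0, fell with log2 fold changes of -0.92 and -0.51. The rows of CCDC115, DMXL1, ROGDI and VMA21 overlap other rows.

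Upstream of the Rags, GATOR1, which switches RagA and RagB off, and KICSTOR, its anchor, had 3 of 7 genes higher (DEPDC5, KPTN and ITFG2) and 2 lower (KICS2 and NPRL2). GATOR2, which opposes GATOR1, had 2 of 5 higher (SEH1L and WDR59) and 2 lower (SEC13, with a log2 fold change of -1.10, and WDR24). BORC, which binds Ragulator and positions lysosomes, had 3 of 8 higher (SNAPIN, with a log2 fold change of 1.23, BORCS6 and BORCS7) and 2 lower (BORCS5 and BLOC1S2). With total-count scaling 1 BORC gene was higher, and with quantile normalization 5. The rows of DEPDC5, ITFG2, NPRL2, SEC13, WDR24, SNAPIN and BORCS6 overlap other rows.

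Other regulators of Rag and Rheb at the lysosome were lower for 13 of 18 and higher for 2, against 33.2% lower and 33.1% higher over all genes tested. Their median was -0.32 on the log2 scale. RHEB, the GTPase that activates mTOR complex 1, fell to 21247 ± 1019 with BEZ235, against 47423 ± 215 with DMSO (log2 fold change -1.16, SE 0.051, limma adjusted p = 1.06e-08). RNF152, a ubiquitin ligase of RagA, fell to 376 ± 20.1 with BEZ235, against 2507 ± 126 with DMSO (log2 fold change -2.73, SE 0.084), and CASTOR2, a relative of the arginine sensor CASTOR1, and TBC1D7, a subunit of the TSC complex, fell with log2 fold changes of -2.14 and -1.41. TSC2, the subunit of that complex that switches RHEB off, rose with a log2 fold change of 1.17. FLCN, which acts on RagC and RagD, had one of -0.36 (SE 0.080, limma adjusted p = 0.00197). SLC38A9, the arginine-sensing transporter that binds Ragulator, had one of -0.06 with a 95% interval of -0.22 to 0.10 and did not pass. The rows of RHEB, CASTOR2, TBC1D7, TSC2 and FLCN overlap other rows.

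Of the MiT/TFE genes, TFE3 fell to 4633 ± 223 with BEZ235, against 12670 ± 364 with DMSO, TFEB to 617 ± 60.3 with BEZ235, against 1574 ± 84.4 with DMSO, and MITF to 181 ± 21.0 with BEZ235, against 441 ± 26.5 with DMSO. TFEC was near the floor at 4.70 ± 6.24 with BEZ235 and 12.9 ± 7.97 with DMSO and did not pass. Lysosomal hydrolases and membrane proteins rose for 14 of 31 and fell for 11, and their median was 0.00 on the log2 scale; CTSF, HEXA and CTSA rose and OSTM1, GLA and CTSB fell. The CTSA row overlaps PLTP and NEURL2, with log2 fold changes of 1.29 and 1.46, and the rows of HEXA and CTSB overlap rows that changed in their own direction.

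**Figure D5:**
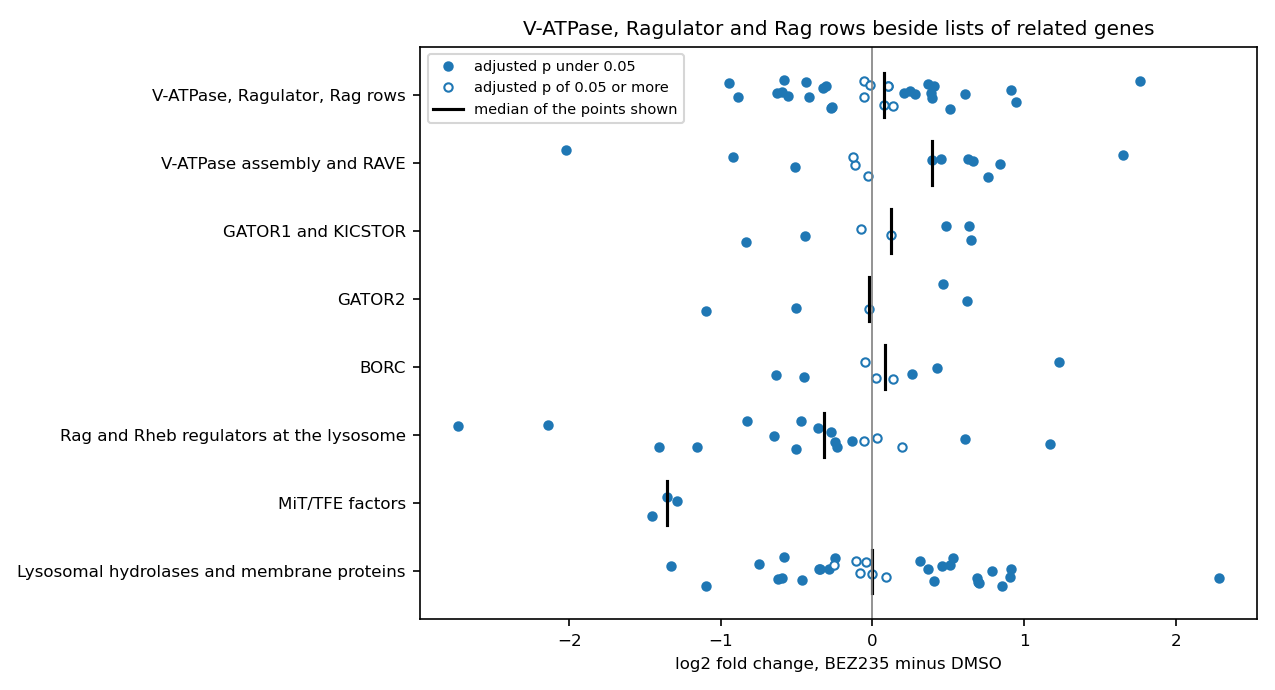
Log2 fold changes (x axis, BEZ235 minus DMSO) of the V-ATPase, Ragulator and Rag rows and of 7 lists of related genes; each point is a gene, filled where the adjusted p was under 0.05, and the black line is the median of the points shown (TFEC, which did not pass, is left out). The V-ATPase, Ragulator and Rag rows lie on both sides of 0, with RRAGB at 1.77, and TFE3, TFEB and MITF all lie below -1.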

How the data were processed

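RNA from 6 libraries was measured by sequencing, 3 per group. The authors deposited normalized counts, a signal that is never negative; per the file headers, rows are FASTDB genes with hg38 coordinates. Per the submitters' processing notes, the tools were STAR 2.4.0, DESeq, SAMtools, Picard and FastQC and the build hg38, with roles not stated. No source used here states the counting rule or strand, so overlapping rows and 6 genes with 17 processed pseudogenes in GENCODE v29 (ATP6V1G1, ATP6V0C, ATP6V0E1, LAMTOR3, ATP6V1E1 and LAMTOR5) may share reads. Control columns were matched to DMSO samples by number.

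Values were whole multiples of 1 read for 100% of values (tolerance 0.01 normalized counts); 3 reads equal 2.50 to 3.47 normalized counts, and such limits cover counting error only. Genes with at least 10 normalized counts in 3 libraries were tested with limma 3.58.1 (R 4.3.3, mean-variance trend, pseudocount 1, two-sided), on a log2 scale that understates changes of low genes. edgeR 4.0.16 and DESeq2 1.42.0 on recovered reads were alternatives. The method was tested on simulated data in which few genes changed. In these data most genes tested were called, so that test does not bear on the calls or the scaling here. Every gene taken by the symbol rule is named, and of other lists up to 3 genes per direction with the smallest adjusted p, besides TCIRG1, SLC38A9, FLCN, RHEB, TFEB, TFE3, MITF and genes that overlap a named row. The genes and lists were chosen with earlier results of these data known; the promoter search was not among the planned tests and is a description. A gene that the rule would name is not reported here.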

Additional observations from a re-analysis of the deposited data

How the results depend on the processing

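Each fit was repeated under 17 alternatives: TMM, quantile and total-count scaling, pseudocounts 0.5 and 10, dropping the filter or raising it to 50, no trend, the replicate number as a block, each library left out, and edgeR and DESeq2 on recovered reads. The number of V-ATPase, Ragulator and Rag rows that rose ran from 11 to 14 and that of rows that fell ran between 11 and 13; leaving out each library gave 12 to 14 and 11 to 12. Genes called over the whole table ran from 14285 to 16102, and related list genes called from 64 to 71, against 67. The calls of 10 rows or their sign changed in some alternative, all among rows with log2 fold changes between -0.33 and 0.21. Reversals of sign were those of ATP6V1F (0.0045) and RRAGD (0.0041) with quantile normalization, RRAGA (-0.0172) with total-count scaling, and ATP6V0E1 (0.0169 with quantile normalization, 0.0203 and 0.0108 without DMSO replicates 1 and 3; -0.0808 to 0.0203 over the libraries left out), none of which passed the test. Total-count scaling gave a median of -0.10 over all genes and 43.6% of calls higher, against 0.00 and 49.9% as deposited. V0 subunits called higher were then 1, against 2. BORCS6 and BORCS7 lost their calls with it, BORCS7 also without the trend. No pairing by replicate number was seen: deviations of same-numbered libraries correlated at -0.038, 0.023 and 0.044, and those of differently numbered ones at -0.097 to 0.072. Such values cannot show whether the experiment was paired. With the replicate block 12 rows rose, 12 fell and 15917 genes were called. Paralog ratio differences were repeated with a pseudocount of 10 and with each library left out. The difference for RRAGB over RRAGA ran from 1.64 to 1.75 and that for ATP6V1C2 over ATP6V1C1 from -1.36 to -1.18. Leaving out 1 library of 3 cannot move a difference by more than its replicate spread, so these ranges are a description only. No gene taken by the symbol rule shared its row with another symbol, so that alternative was not run.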

Other observations

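Transcripts whose names hold a hyphen were kept apart. ATP6AP1-DT, named as a divergent transcript of ATP6AP1, had normalized counts of 192, 176 and 202 with BEZ235, against 79.9, 97.1 and 98.5 with DMSO, and rose (log2 fold change 1.04, SE 0.185, limma adjusted p = 4.58e-04). The antisense rows LAMTOR5-AS1, ATP6V1B1-AS1 and ATP6V0E2-AS1 had log2 fold changes of -0.05, 0.23 and 0.02 and did not pass the test. Each of these 3 overlaps the gene it is named for.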
